A study of Mus musculus with 8 samples.

Results

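Natural killer (NK) cells at the cortical lesion were followed as 228 droplets among the 46216 that passed the limits on depth and mitochondrial RNA in 8 mice (0.493%). They were selected by their own transcripts. At least 2 of Ncr1, Klrb1c, Klre1, Gzma and Xcl1 had to be detected, including 1 of the receptor genes Ncr1, Klrb1c and Klre1, with at most 1 of Cd3e, Cd3d and Cd3g. Droplets held at least 2000 unique molecular identifiers (UMIs), of which less than 20% were mitochondrial. Per 10,000 UMIs they had to hold less than 1 of P2ry12 and Tmem119 (microglia), less than 2 of Cldn5 and Flt1 (endothelium) and less than 10 of Col1a1 and Col1a2 (fibroblasts). T cell droplets of the same mice, with at least 2 Cd3 genes and the same limits, numbered 459 and served for comparison. NK genes were not excluded from them, so they include 82 droplets that also met the NK gene criterion.

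The tissue was the lesion with a rim of spared right sensorimotor cortex, taken 6 days after photothrombosis (PT), an ischemic injury made by illuminating a dye in the blood. The mice were adult females of the C57Bl/6J strain per the labels, and each carried a subcutaneous osmotic pump from 2 days before PT. It delivered saline in the 4 control mice and ancrod, a snake venom enzyme that depletes fibrinogen from the blood, at 2.4 U per day in the 4 ancrod mice. All mice were injured, no cell type was enriched, and each mouse gave 1 library. Replicates 1 to 3 of either group formed batch 1 of injury and sequencing, and the replicates numbered 4 formed batch 2. Total UMIs per library were 97861434 to 122758649 in control and 126682918 to 142139441 in ancrod mice, so the groups did not overlap in depth. NK droplets held 2182 to 52860 UMIs (median 8347.5), and 0 of their barcodes occurred among the NK droplets of another library.

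NK cells are innate lymphocytes that carry no rearranged antigen receptor. They weigh signals from activating and inhibitory receptors, many of which are lectins encoded side by side in the NK gene complex. They kill through perforin and granzymes and secrete interferon gamma and chemokines.

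Genes of cytotoxic lymphocytes that the selection did not use were detected in most NK droplets, and several of them in many T droplets too. Nkg7, a granule membrane gene of cytotoxic lymphocytes, was detected in 97.8% of NK and 77.8% of T droplets. Klrd1 (CD94) was detected in 96.5% and 51.2%, Klrk1 (NKG2D) in 97.4% and 42.7% and Tbx21 (T-bet) in 86.4% and 59%. Prf1 (perforin) was detected in 75% and 24.4%, and Eomes in 66.7% and 21.8%. Microglial droplets, which should lack these genes, held Nkg7 in 0.274%, Klrd1 in 0.607% and Eomes in 0.0718% of cases, at a median of 13796 UMIs. No UMI of Cd8a or Cd8b1 was found in NK droplets, nor of Il13, Il5, Il22 and Il17a of other innate lymphoid cells or Pax5 of B cells. The Cd3 genes were limited by the selection, and Cd3e was found in 0 NK droplets, Cd3d in 5 and Cd3g in 23. The constant chains of the T cell receptors were not analysed here, so alpha-beta and gamma-delta T cells were not told apart in the T droplets or among NK droplets with a Cd3 gene. The selecting genes themselves averaged 34.6 ± 8.1 against 1.51 ± 0.869 UMIs per 10,000 in T droplets for Gzma, 4.37 ± 1.43 against 0.19 ± 0.214 for Ncr1, 3.06 ± 0.961 against 0.274 ± 0.181 for Klrb1c, 7.01 ± 1.05 against 0.866 ± 0.33 for Klre1 and 16.2 ± 12.6 against 3.46 ± 2.58 for Xcl1 (SD, n = 8 mice), which describes the choice.

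Traces of other lineages were measured in the same droplets. Over the 10 macrophage markers the sum was 4.92 to 13.6 UMIs per 10,000 in control and 5.92 to 10.9 in ancrod mice, against 3.99 to 28.5 in T droplets. The 7 dendritic cell markers summed to 0.342 to 25.6 in control and 0.0287 to 0.986 in ancrod mice, with Xcr1 and Clec9a at 0. They include Cd74 and H2-Aa, which stood at 17.2 and 8.21 in control 2. The 4 astrocyte markers summed to 0.12 to 13.5 in control and 0.493 to 6.91 in ancrod mice, against 0.211 to 3.02 in T droplets, with control 2 and ancrod 3 the highest. Mural cell markers reached 17.1 in 1 ancrod mouse, where a single droplet held 566 of the 575 Acta2 UMIs.

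At the edges of the choice, 7 of the 228 droplets held 2 of the 5 NK genes, 33 held 3, 102 held 4 and 86 held all 5, and 28 held 1 Cd3 gene. Just outside, 124 droplets held only 1 of the 5 genes, where that gene was Ncr1, Klrb1c or Klre1. Droplets with only Gzma or only Xcl1 were not counted. Another 82 met the NK gene criterion with 2 or 3 Cd3 genes and were counted among the T droplets. The limits on other lineages kept out 35, the mitochondrial limit 1, and the depth limit 5 that had at least 1000 UMIs.

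NK droplets were scarce in both treatment groups. Their share of all droplets was 0.226%, 0.395%, 0.653% and 0.612% in control mice 1 to 4, and 0.609%, 0.525%, 0.632% and 0.236% in ancrod mice 1 to 4. Control 1 with 13 NK droplets and ancrod 4 with 12 were the lowest, and the groups overlapped. The exact (Clopper-Pearson) 95% interval, which covers counting error only, was 0.121% to 0.387% for control 1. The share averaged 0.472% ± 0.199 in control and 0.5% ± 0.182 in ancrod mice (SD, n = 4 each), a difference of 0.0286 percentage points (two-sided exact permutation test, p = 0.886, Benjamini-Hochberg adjusted over the 3 shares compared p = 0.914). With 70 arrangements the smallest possible p was 0.0286. Within batch 1 the difference was 0.163 (exact permutation p = 0.4, where 3 mice against 3 cannot go below 0.1), and batch 2, with 1 mouse a group, gave -0.376. The sign turned without control 1 (-0.0532), ancrod 1 (-0.00761) or ancrod 3 (-0.0152). A droplet share cannot tell fewer NK cells from more cells of other types.

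Relative to T cells, NK droplets made up 18.3%, 31%, 37.6% and 38.6% of NK and T droplets in control mice 1 to 4, and 31.3%, 32.3%, 41.5% and 27.9% in ancrod mice 1 to 4. Control 1 was the lowest and ancrod 3 the highest. This share averaged 31.4% ± 9.35 in control and 33.2% ± 5.81 in ancrod mice (SD, n = 4 each, exact permutation p = 0.743, adjusted p = 0.914). The difference was 6.06 percentage points within batch 1 and -10.7 in batch 2. It was -2.5 without control 1 and -0.886 without ancrod 3.

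**Figure D1:**
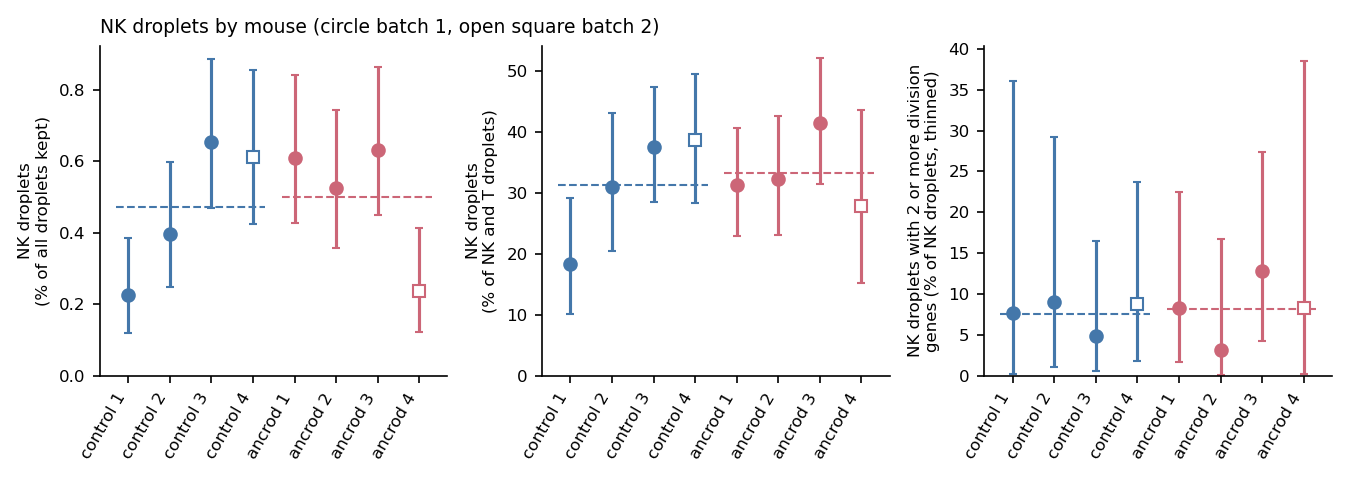
NK droplets as a percent of all droplets (left) and of NK and T droplets (middle), and dividing NK droplets as a percent of NK droplets in 1 thinning draw (right), for each mouse with its exact 95% interval. Dashed lines are group means, circles batch 1 and squares batch 2. Control and ancrod mice overlap in all 3 panels.

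A division programme was read from the cell cycle genes Cdk1, Ccnb2, Cenpf, Mki67 and Top2a. At least 2 of them had to remain once a droplet was thinned to 2000 UMIs, and few NK droplets met this. In 1 thinning draw these shares were 7.69%, 9.09%, 4.88% and 8.82% in control mice 1 to 4 and 8.33%, 3.23%, 12.8% and 8.33% in ancrod mice 1 to 4, or 8 control and 10 ancrod droplets in all. They averaged 7.62% ± 1.93 in control and 8.18% ± 3.92 in ancrod mice (SD, n = 4 each, exact permutation p = 0.914, adjusted p = 0.914). The draw moved single mice by a large factor. As the mean of 100 draws the shares were 5.46%, 3.64%, 6.27% and 9.53% in control and 6.42%, 7.1%, 8.92% and 10.4% in ancrod mice 1 to 4, so that control 2 rather than ancrod 2 was the lowest. These averaged 6.22% ± 2.46 in control and 8.21% ± 1.81 in ancrod mice (exact permutation p = 0.2). Without thinning the order turned, at 21.3% ± 9.08 in control and 14.5% ± 5.02 in ancrod mice (exact permutation p = 0.2). The median depth of NK droplets by mouse was 6594 to 13635.5 UMIs in control and 6388 to 8770 in ancrod mice. NK droplets with Mki67 were deeper than the others (median 22296 against 7615 UMIs). Thinning thus removed more of their UMIs, and the thinned shares were lower than the unthinned ones. In the single draw the difference was 0.906 percentage points within batch 1, -0.49 in batch 2, -0.357 without control 3, -0.99 without ancrod 3 and 2.21 without ancrod 2. No order of the groups was detectable with so few droplets.

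NK and T droplets of the same mice differed in 1204 of 8276 genes (14.5%) at an adjusted p under 0.05 in edgeR's quasi-likelihood test, with each mouse as a block. NK droplets were higher in 524 genes (6.33%) and lower in 680 (8.22%), of which 145 (1.75%) and 187 (2.26%) did not overlap over the mice. The 14 genes used by the selection were left out. The classes were cut from the droplets' own transcripts, so genes that accompany the selecting genes had to differ, and these calls describe the classes as cut. Below, levels are UMIs per 10,000 in the sum over a mouse's NK or T droplets, and log2 fold changes of NK over T carry their standard errors.

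Of 25 tested genes of the NK gene complex 13 were higher in NK droplets, Cd69 was lower and 11 did not pass. The complex spans 1.78 Mb of chromosome 6 (128586190 to 130363837 in GRCm39, from Klrb1a to Klra1) and encodes lectin-like receptors. The 13 encode lectin-like receptors, but so do several genes that did not pass, among them Klra1, Klra5, Klra6, Klrc1, Klri1, Clec2d and Clec7a. The median log2 fold change was 1.37, against -0.02 over all genes tested.

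Activating Ly49 receptors were among the 10 largest differences. Klra8 (Ly49H, chromosome 6, 130092152 to 130106938, minus strand), which binds a cytomegalovirus protein, ranged from 2.74 to 8.94 UMIs per 10,000 over the 8 mice with a median of 4.66, and from 0 to 0.174 in T droplets (log2 fold change 7.3 ± 0.51, edgeR adjusted p = 1.34e-07). Klra4 (Ly49D, 130020690 to 130044294, minus strand) ranged from 3.4 to 15.7 with a median of 6.47, and from 0 to 0.249 in T droplets (6.62 ± 0.48, edgeR adjusted p = 1.79e-07). For both genes the NK droplets of every mouse lay above the T droplets of every mouse. Klra8 was detected in 50.4% of NK, 0.654% of T and 0.0392% of microglial droplets, and in 41.7%, 0.654% and 0% after thinning to 2000 UMIs.

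Of 13 tested genes listed as activating receptors 9 were higher, 2 lower and 2 did not pass, with a median log2 fold change of 1.42. Among the 9, the call of Fcgr3 was lost in 8 other settings (edgeR adjusted p up to 0.119, with no replicate block, no Cd3 gene detected or on leaving out any 1 mouse other than control 3 or ancrod 1). Klrb1b averaged 1.74 ± 0.302 against 0.0308 ± 0.0347 UMIs per 10,000 in T droplets (SD, n = 8). It stood in this list although its product, NKR-P1B, is known as an inhibitory receptor. Klri2, whose product pairs with that of Klre1, averaged 2.89 ± 1.23 against 0.178 ± 0.173, Cd244a (2B4) 1.33 ± 0.207 against 0.159 ± 0.0549, Klrd1 7.45 ± 0.843 against 2.12 ± 0.699 and Klrk1 6.47 ± 1.72 against 2.27 ± 0.43. The lower ones were the adhesion-type receptors Slamf6 (log2 fold change -3.36) and Cd226 (-0.95).

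Inhibitory receptors differed in both directions. Of 14 tested, 4 were higher (the Ly49 genes Klra3, Klra7 and Klra9, and Klrg1), 3 lower and 7 did not pass. Klra9 (Ly49I) averaged 3.43 ± 1.09 against 0.273 ± 0.322 and Klra7 (Ly49G) 3.35 ± 1.32 against 0.786 ± 0.554 UMIs per 10,000 in T droplets (SD, n = 8). The lower ones were the checkpoint genes Ctla4 (log2 fold change -2.35), Pdcd1 (-1.58) and Havcr2 (-3.01). Havcr2 was detected in 8.06% of T and 2.63% of NK droplets but in 79% of microglial droplets. Its UMIs in T droplets are therefore not sure to come from the T cell. Members of the same families did not pass, such as Klra1 of the Ly49 genes (0.918 ± 0.29 against 0.705 ± 0.359, log2 fold change 0.31 ± 0.31) and the checkpoint gene Tigit (0.403 ± 0.147 against 0.27 ± 0.102, 0.63 ± 0.23). Klrc1 (NKG2A) stood at 1.9 ± 0.678 against 1.68 ± 0.417 and did not pass either.

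Receptor adaptors differed in both directions. Fcer1g, a chain that couples NKp46 (the product of Ncr1), ranged from 13.5 to 22.3 UMIs per 10,000 in NK and from 1.3 to 2.86 in T droplets. Tyrobp (DAP12), which couples Ly49D and Ly49H, ranged from 8.91 to 12.9 and from 0.574 to 2.69. Sh2d1b1 (EAT-2) averaged 0.51 ± 0.102 against 0.0346 ± 0.0299 and Lat, the scaffold of T cell receptor signals, 0.215 ± 0.0985 against 1.82 ± 0.326 (SD, n = 8). Of the 10 adaptors 5 were higher and 4 were lower, namely Lat, Cd247 and Zap70 of the T cell receptor pathway and Hcst (DAP10), which couples NKG2D. Cd247 and Zap70 were still detected in 66.2% and 44.3% of NK droplets, against 87.1% and 58.4% of T droplets. The Zap70 call (edgeR adjusted p = 0.0255) was lost in DESeq2 (0.0924) and in edgeR without control 2, 3 or 4 or ancrod 1 or 3 (0.0554 to 0.0942). Microglia also carry Fcer1g and Tyrobp, and the 5 microglial markers summed to 0.172 to 0.533 UMIs per 10,000 over the NK droplets of all mice and 0.166 to 0.532 over T droplets. The selection itself limited 2 of the 5 (P2ry12 and Tmem119) in both classes, so that part of the sum was fixed by the choice.

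**Figure D2:**
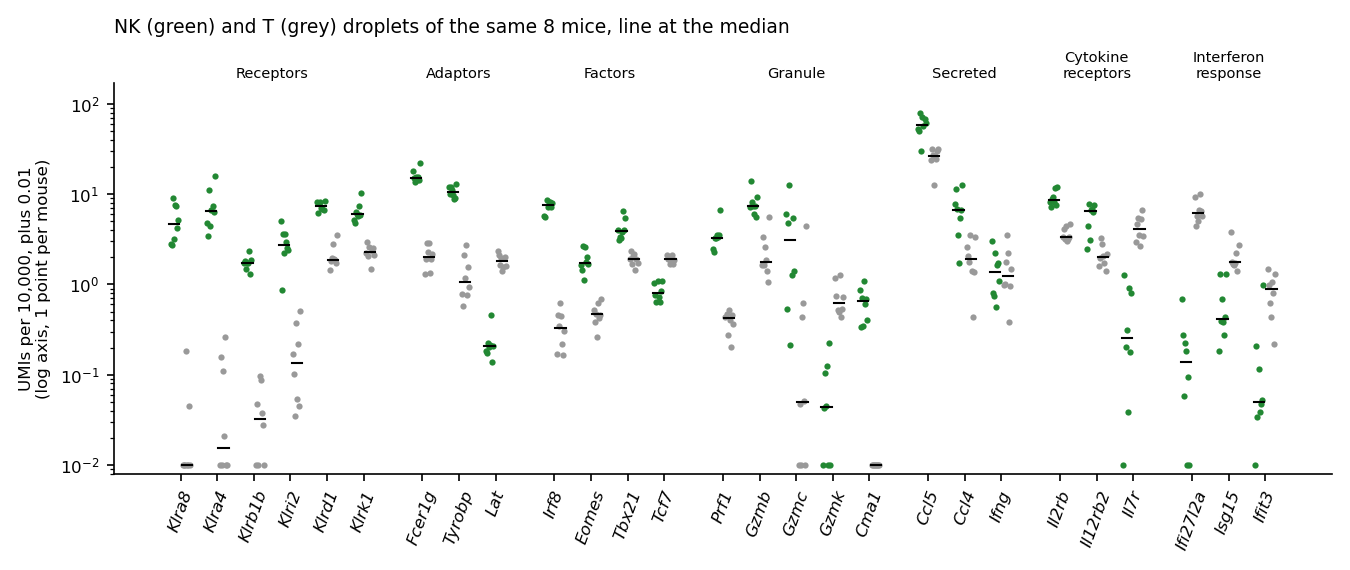
Levels of 27 genes in the NK (green) and T (grey) droplets of each of the 8 mice, in UMIs per 10,000 plus 0.01 on a log axis, with a line at the median. Klra8, Klra4, Klrb1b, Fcer1g, Tyrobp and Irf8 do not overlap between the classes, while Ifng does.

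**Figure D3:**
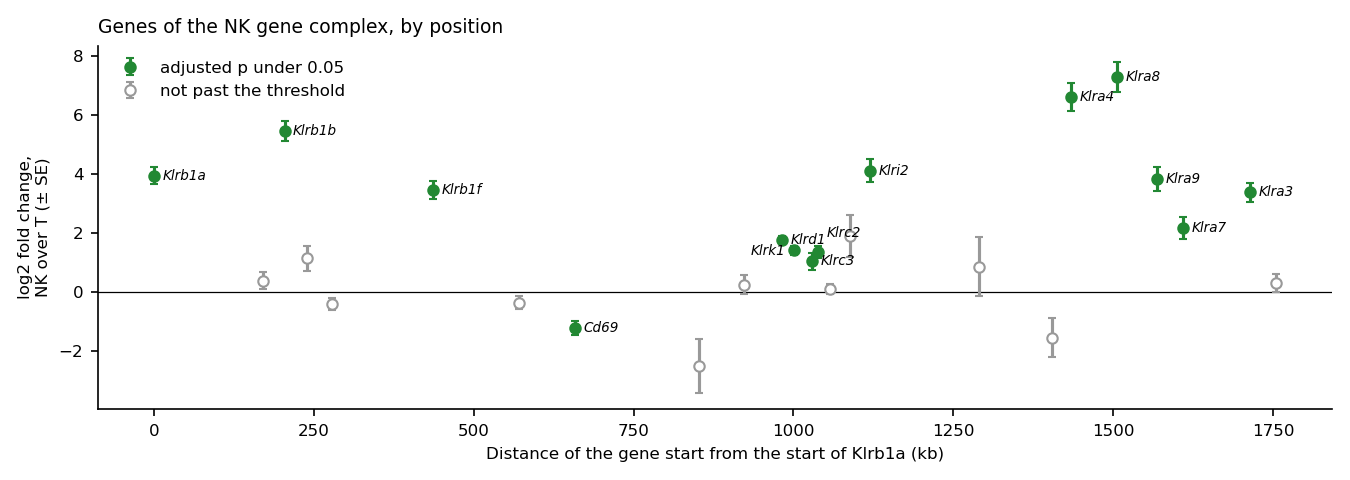
Fold change of NK over T droplets (log2, error bars SE) for the 25 tested genes of the NK gene complex, by distance in kb from Klrb1a. Filled points passed an adjusted p of 0.05, and 13 of these lie above 0 and Cd69 below.

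Among 15 transcription factors of innate lymphocytes 7 were higher and 2 lower. Among the 7, the call of Runx3 was lost in 7 other settings (edgeR adjusted p up to 0.368, with no Cd3 gene detected or on leaving out any 1 mouse other than control 2 or ancrod 1) and that of Nfil3 in 4 (DESeq2 adjusted p = 0.0686, and in edgeR with no filter or without control 3 or ancrod 1). Irf8, best known from myeloid cells, ranged from 5.54 to 8.61 UMIs per 10,000 with a median of 7.54, against 0.157 to 0.609 in T droplets (4.41 ± 0.2, edgeR adjusted p = 2.35e-09), without overlap. It was detected in 91.2% of NK and 15.5% of T droplets. The T-box factors of NK cells were higher too, with Eomes at 1.85 ± 0.529 against 0.469 ± 0.135 and Tbx21 at 4.17 ± 1.17 against 1.9 ± 0.29 in T droplets (SD, n = 8). Tcf7 (TCF-1) and Ets1 were the lower ones, at log2 fold changes of -1.24 and -0.4.

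Of 16 tested granule genes 8 were higher in NK droplets, 2 were lower and 6 did not pass (median log2 fold change 0.38). Prf1, which forms the pore, averaged 3.52 ± 1.33 against 0.382 ± 0.106 and Gzmb (granzyme B) 8.13 ± 2.6 against 2.37 ± 1.45 UMIs per 10,000 in T droplets (SD, n = 8). The granzyme inhibitors Serpinb9 and Serpinb6b were higher too, at log2 fold changes of 1.62 and 1.83. Gzmk was lower (0.0615 ± 0.0755 against 0.729 ± 0.32), and Gzmd had no UMI in NK droplets. Gzmm was lower as well (0.0559 ± 0.0367 against 0.146 ± 0.0893, edgeR adjusted p = 0.0446), a call lost in 9 other settings, at adjusted p of 0.0514 (floor of 3000 UMIs) to 0.155 (DESeq2). Those in edgeR include leaving out control 1, 2 or 3 or ancrod 1, 3 or 4.

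Cma1, a chymase gene best known from mast cells, was found in NK droplets of every mouse and in no T droplet. It lies on chromosome 14 (56178908 to 56182132, minus strand) in the protease cluster that reaches to Gzmb over 321 kb. Its level was 0.854, 0.33, 0.693 and 0.335 UMIs per 10,000 in control and 1.09, 0.599, 0.682 and 0.395 in ancrod mice 1 to 4. NK droplets held 158 of its UMIs and T droplets 0 of 5248688, so it was at least 107-fold higher against a floor of 3 counts over all T droplets. Fcer1a and Ms4a2 of mast cells and basophils were at 0 in NK droplets, and their 4 markers summed to at most 0.0956 UMIs per 10,000 in any mouse. All 62 droplets with Cma1 also held Gzma, which helped select the droplets and was detected in 75% of all NK droplets.

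Other genes were also among the 10 largest differences upwards. Angpt1 (angiopoietin 1) averaged 0.489 ± 0.228 against 0.0218 ± 0.0513 and Adamts14, a procollagen protease, 0.85 ± 0.381 against 0.0192 ± 0.0139 UMIs per 10,000 in T droplets (SD, n = 8). Vegfc, a lymphatic growth factor, had 56 UMIs in NK and 1 in T droplets, Phactr3 85 and 3, and Bahcc1 45 and 3. Vegfa, listed among secreted factors, averaged 0.794 ± 0.229 against 0.109 ± 0.0533. At the other end, Cd8b1, Cd8a, Slamf1, Tnfrsf4, Dapl1 and Sit1 had no UMI in NK droplets and were at least 268-fold (Cd8b1) to 18.3-fold (Sit1) lower, against 3 counts over all NK droplets. Themis, a T cell signalling gene, had 1 UMI in NK and 3094 in T droplets, Gm8369 2 and 1122, Cd5 3 and 831, and Cd6 3 and 825.

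The chemokine genes Ccl5 and Ccl4 were higher in NK droplets, whereas Ccl3 and Ifng did not pass. Ccl5, which attracts T cells and monocytes, ranged from 30.2 to 79.8 UMIs per 10,000 with a median of 58.6, against 12.6 to 31.9 in T droplets (1.1 ± 0.08, edgeR adjusted p = 2.17e-07). Ccl4 averaged 6.99 ± 3.7 against 2.05 ± 1.04 and Tgfb1 3.62 ± 0.797 against 1.64 ± 0.117 (SD, n = 8). Ccl4, Ccl3 and Tgfb1 were also detected in 88.2%, 83.5% and 88.1% of microglial droplets. Their UMIs are therefore not sure to come from the NK or T cell. Of 11 secreted factors 4 were higher, Ltb was lower and 6 did not pass. Ifng was detected in 34.6% of NK, 32% of T and 0.0457% of microglial droplets, at 1.46 ± 0.841 against 1.53 ± 0.982 (-0.12 ± 0.36, edgeR adjusted p = 0.905).

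Of 17 cytokine receptors 5 were higher, 4 lower and 8 did not pass. The calls of Ifngr1 (higher, edgeR adjusted p up to 0.102, without control 3 or 4 or ancrod 1, 2 or 4) and Il27ra (lower, up to 0.0897 in DESeq2, and in edgeR without control 3 or 4 or ancrod 1 or 3) were lost in 5 other settings each. Il2rb, a chain for interleukins 2 and 15, averaged 9.12 ± 1.78 against 3.64 ± 0.642 UMIs per 10,000 in T droplets, Il12rb2 5.61 ± 2.01 against 2.11 ± 0.635 and Il18rap 3.08 ± 0.714 against 1.01 ± 0.35 (SD, n = 8). Il7r, the receptor chain for interleukin 7, averaged 0.454 ± 0.464 against 4.32 ± 1.41 without overlap.

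Homing genes divided evenly, with 5 of 19 higher, 5 lower and 9 that did not pass. Among the higher ones, the call of S1pr5 was lost in 7 other settings (edgeR adjusted p up to 0.0854, on leaving out any 1 mouse other than control 4) and that of Itgb1 in 6 (up to 0.118, with no Cd3 gene detected or on leaving out control 3 or any 1 ancrod mouse). Ccr2, an inflammatory chemokine receptor, averaged 3.09 ± 0.589 against 1.19 ± 0.328 UMIs per 10,000 in T droplets (SD, n = 8). Cxcr3, Cxcr6, Ccr7, S1pr1 and Cd69 were lower. Of 9 tested genes of tissue-resident type 1 innate lymphoid cells 0 were higher and 4 lower, and Itga1 (CD49a) did not pass (0.48 ± 0.21). The measure here is T droplets, of which 58% held Cxcr6 and 65.4% Il7r, against 20.2% and 10.5% of NK droplets. It does not show whether such innate lymphoid cells were among the NK droplets, and the 2 were not told apart.

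Among integrin genes whose products bind fibrinogen, the protein that ancrod depletes, 2 of 5 tested were higher in NK than in T droplets. These were Itgam (CD11b, 2.27 ± 0.48) and Itgax (CD11c, 2.6 ± 0.3), and Itgb2, Itgb3 and Itgav did not pass. Macrophages carry both genes, and their marker sums are given above. Itgam stood at 0.342, 0.429, 0.574 and 0.282 UMIs per 10,000 in control and at 0.575, 0.787, 0.554 and 0.296 in ancrod mice 1 to 4, with overlap. Itgb2 (CD18), its partner chain, stood at 1.79, 2.21, 2.03 and 1.52 and at 1.9, 2.02, 2.26 and 2.27.

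Interferon response genes were lower in NK droplets almost throughout. Of 14 tested 13 were lower in NK droplets, 0 were higher and Oasl1 did not pass (median log2 fold change -1.65). The calls of 3 of the 13 were lost in other settings, of Mx1 in 6 (edgeR adjusted p up to 0.0985, on leaving out control 1, 3 or 4 or ancrod 1, 2 or 4), of Irf7 in 5 (up to 0.12 in DESeq2, and in edgeR without control 1 or 4 or ancrod 2 or 3) and of Ifit2 in 2 (up to 0.0536, without control 3 or 4). Ifi27l2a ranged from 0 to 0.683 UMIs per 10,000 with a median of 0.129, against 4.46 to 10.1 in T droplets, without overlap. Isg15 averaged 0.609 ± 0.443 against 2.11 ± 0.781 and Ifit3 0.178 ± 0.333 against 0.853 ± 0.427 (SD, n = 8). None of the 10 division genes and none of the 11 immediate early and heat shock genes passed in either direction.

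NK droplets differed among themselves. Gzmc (granzyme C) was detected in 44 of them (19.3%), 2 to 10 in each mouse, and 73.1% of its 1311 UMIs came from 5 droplets. Its level was 6.06, 0.528, 4.83 and 12.5 UMIs per 10,000 in control and 0.201, 1.27, 5.5 and 1.38 in ancrod mice 1 to 4. Gzmc was higher in NK than in T droplets (3.6 ± 0.97, edgeR adjusted p = 0.02). This edgeR call was lost without control 1 (adjusted p = 0.0608), control 3 (0.0564), control 4 (0.0734) or ancrod 3 (0.0559), and without droplets that held a Cd3 gene (0.0737).

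Droplets with Gzmc held more of Cxcr6, Itga1, Tnfrsf9 and Gzmb and less of Ccl5, Eomes and Klra4. Against the 184 others, the summed level of Cxcr6 was 2.25 against 0.422 UMIs per 10,000 (higher in 8 of 8 mice), Itga1 1.91 against 0.618 (7 of 8), Tnfrsf9 (4-1BB) 4.7 against 2.59 (8 of 8) and Gzmb 13.3 against 6.04 (7 of 8). Cxcr6 and Itga1 are known from tissue-resident lymphocytes, while other such genes were less even over the mice. Il7r stood at 0.385 against 0.407 (higher in 3 and lower in 4 mice), Tmem176b at 0.909 against 0.685 (higher in 4 and lower in 4) and Cd69 at 1.28 against 1.07 (higher in 3 and lower in 5). Ccl5 (13.6 against 72.5), Eomes (0.755 against 2.24) and Klra4 (1.82 against 8.46) were lower in 8 of 8 mice each. Tbx21 stood at 4.37 against 3.75 and Ncr1 at 4.19 against 4.07, higher in 5 and 3 of 8 mice. Droplets with Gzmc were deeper (median 11470 against 7603.5 UMIs), and the part of depth in these values was not tested. The 57 NK droplets without Gzma, a selecting gene, were set against the 171 with it. Cxcr6 (2.35 against 0.203) and Tmem176b (1.72 against 0.288) were higher in 8 of 8 mice each. Itga1 (1.23 against 0.807) was higher in 6 of 8. Il7r (0.843 against 0.197) was higher in 5 and lower in 2, and Cd69 (1.28 against 1.04) higher in 2. Eomes was lower in 7 of 8 (0.745 against 2.39). These 57 were deeper (median 10253 against 7420 UMIs). These splits were made on the data and carry no test.

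Droplets with Klra8 held more of several of the genes that were low beside Gzmc. Between the 115 with it and the 113 without, Ccl5 stood at 95.1 against 30.2 UMIs per 10,000, Irf8 at 10.6 against 5.02 and Eomes at 2.63 against 1.31, higher in 8 of 8 mice each. Itgam (0.847 against 0.228) and S1pr5 (0.364 against 0.0268), which mark late NK maturation, and Cma1 (1.3 against 0.1) were likewise higher in 8 of 8. Cxcr6 was lower in 8 of 8 mice (0.255 against 1.34), Kit in 7 (0.0911 against 0.516) and Il7r in 6 (0.00911 against 0.69). These droplets were shallower (median 7227 against 9819 UMIs).

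**Figure D4:**
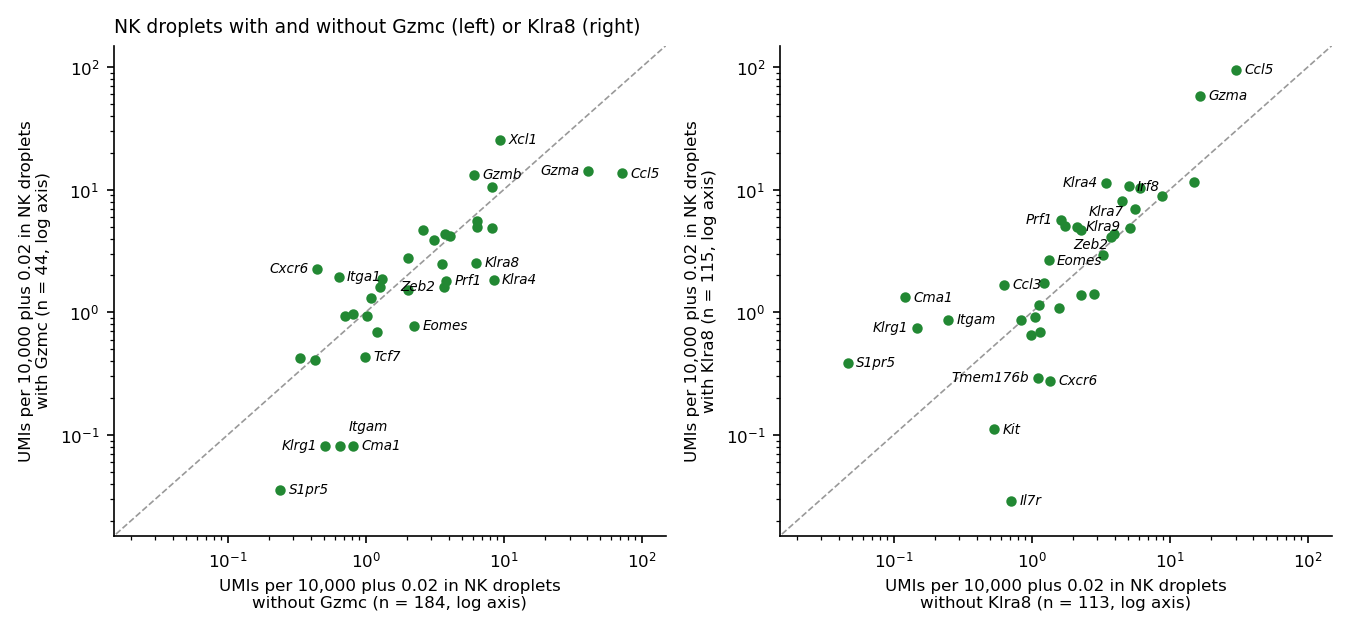
Summed levels of 36 genes in NK droplets with Gzmc against those without it (left), and with Klra8 against without (right), in UMIs per 10,000 plus 0.02 on log axes, with the line of equality dashed. Cxcr6, Itga1 and Gzmb lie above the line for Gzmc, and Cma1, S1pr5 and Itgam lie above it for Klra8.

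Most NK droplets held more than 1 Ly49 gene. Of Klra1, Klra3, Klra4, Klra7, Klra8 and Klra9, 35 droplets held none, 31 held 1, 34 held 2, 64 held 3, 48 held 4, 16 held 5 and 0 held all 6. Klra4 and Klra8 were both found in 79 droplets, and Klra8 was in 70.5% of droplets with Klra4 and 31.0% of the rest. This pair differed most of the 15. Klra1 and Klra3, and Klra7 and Klra9, leaned slightly the other way, with Klra3 in 25% of droplets with Klra1 and 27.6% of the rest, and Klra9 in 50.4% with Klra7 and 54.1% of the rest. Related genes may share reads at their transcript ends. Of 91-base stretches in the last 500 bases, 1.42% of Klra8, 0% of Klra4, 2.62% of Klra7, 3.92% of Klra3, 11.7% of Klra9 and 21.5% of Klrc1 occurred in a relative, so Klra9 and Klrc1 are the less certain counts.

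Cd27 and Itgam, which are used to stage NK maturation, were detected in every combination. Cd27 alone was detected in 75 droplets (32.9%), Itgam alone in 51 (22.4%), both in 23 (10.1%) and neither in 79 (34.6%). Median depth was 11773 UMIs with Cd27 alone, 6736 with Itgam alone and 6594 with neither, so an absent gene and an undetected one cannot be told apart. Nor is a UMI of Itgam sure to come from the NK cell. Itgam was detected in 93% of microglial droplets and 5.45% of T droplets, at median depths by mouse of 8303 to 11527.5 UMIs in the T droplets, against 32.5% of NK droplets. In the 79 droplets with Ifng, Ccl4 stood at 9.6 against 3.85 UMIs per 10,000 in the others (higher in 6 of 8 mice) and Gzmb at 10.9 against 5.97 (7 of 8).

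Between ancrod and control mice no gene of NK droplets passed an adjusted p of 0.05, with 0 of 5087 called by edgeR (0%) and 0 by DESeq2. At an unadjusted p under 0.05 there were 195 in edgeR (3.83%), 90 higher (1.77%) and 105 lower (2.06%) in ancrod mice, and 171 of 14047 in DESeq2, which tested more genes. In simulated counts of these genes, edgeR recovered 35% of those changed by 1 on the log2 scale and 96% of those changed by 2. The simulated counts followed edgeR's smooth trend of dispersion. Genes with most UMIs in a few droplets, such as Cd74 below, were not represented, so their recovery is not known. Of 147 tested genes on the function lists 8 had an unadjusted p under 0.05 (5.44%) and 2 did not overlap between groups, against 2.24% of all genes.

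The 5 genes with the lowest unadjusted p were Cd74, Esr1, Ifi30, Lef1 and Ctss. Esr1 (estrogen receptor alpha) stood at 0.0854, 0.231, 0.263 and 0.0882 UMIs per 10,000 in control and at 0.488, 0.524, 0.597 and 0.789 in ancrod mice 1 to 4. All ancrod mice lay above all control mice, with UMIs in 14 control and 35 ancrod droplets (log2 fold change 1.67 ± 0.39, edgeR unadjusted p = 0.000522, adjusted p = 0.979). Lef1, a Wnt pathway factor, stood at 0.683, 0.759, 1.65 and 0.9 and at 2.1, 2.51, 1.66 and 4.14, also without overlap (1.21 ± 0.31, edgeR unadjusted p = 0.00118, adjusted p = 0.979).

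Cd74, the invariant chain of MHC class II, stood at 0.256, 17.2, 2.3 and 8.24 UMIs per 10,000 in control and at 0, 0.0749, 0.0853 and 0.888 in ancrod mice 1 to 4 (-5.73 ± 1.01, edgeR adjusted p = 0.174). Control 2 and control 4 were high, and 95.5% of its 1103 UMIs came from 5 droplets. The 3 NK droplets with 10 or more dendritic cell marker UMIs per 10,000 were from control 2, 3 and 4, and without them Cd74 no longer passed the filter on low counts. Cd74 and H2-Aa are themselves among those markers, so this cut removed Cd74 UMIs by its own definition. Without control 1 its edgeR adjusted p was 0.00686. Ifi30 and Ctss, lysosomal genes of antigen-presenting cells, averaged 0.907 ± 0.643 in control and 0.243 ± 0.0511 in ancrod mice, and 1.22 ± 0.475 in control and 0.537 ± 0.137 in ancrod mice (SD, n = 4). Of their 180 and 243 UMIs, 60% and 41.2% came from 5 droplets each. Without the 3 droplets rich in dendritic cell markers Ifi30 no longer passed the filter, and the log2 fold change of Ctss was -0.53 in place of -1.21.

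By list, the median log2 fold change of ancrod over control was 0.01 for 11 activating receptors, 0.24 for 11 inhibitory receptors, -0.02 for 13 granule genes and -0.17 for 7 secreted factors, against -0.01 over all genes. In edgeR 1 activating receptor (unadjusted p = 0.0436) and 1 inhibitory receptor had an unadjusted p under 0.05, and 0 granule genes and 0 secreted factors did. Of the function lists, 11 genes of metabolism had the lowest median (-0.36), 9 of them negative and 2 (Slc7a5, an amino acid transporter, and Ldha, lactate dehydrogenase) with an unadjusted p under 0.05. Of 8 maturation genes 7 were positive (median 0.29) and 0 had an unadjusted p under 0.05. All 5 tested fibrinogen-binding integrins had a positive value (median 0.35) and 0 an unadjusted p under 0.05. Itgam is on both this list and the maturation list. All 5 tested interferon response genes had a negative value (median -0.35), 1 of them (Bst2) with an unadjusted p under 0.05. Over all 5087 genes tested 2503 were positive and 2584 negative, and the signs within lists were not tested.

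Mki67, a marker of dividing cells, stood at 0.513, 0.561, 0.908 and 1.34 UMIs per 10,000 in control and at 1.47, 1.91, 1.79 and 2.47 in ancrod mice 1 to 4. The groups did not overlap (1.01 ± 0.29, edgeR unadjusted p = 0.0031, adjusted p = 0.979), yet it was detected in 21 control and 16 ancrod droplets, and 44.8% of its UMIs came from 5 droplets. The glucose transporter gene Slc2a3 was the other list gene without overlap (0.427, 0.462, 0.55 and 0.441, and 0.373, 0.3, 0.32 and 0.197). Tbx21 averaged 3.42 ± 0.411 in control and 4.92 ± 1.24 in ancrod mice, Klrc1 1.45 ± 0.402 in control and 2.36 ± 0.602 in ancrod mice and Il12rb2 4.41 ± 2.32 in control and 6.81 ± 0.495 in ancrod mice (SD, n = 4), each with overlap and an unadjusted p under 0.05. Gzma was one of the genes that selected the droplets, so its values are given without a test. It stood at 25.1, 28.8, 35.4 and 28.6 in control and at 42.6, 29.7, 38.3 and 48.6 in ancrod mice 1 to 4, with overlap. Of the other effector genes, Prf1, Gzmb and Ifng had an unadjusted p above 0.05 in edgeR. Prf1 averaged 2.81 ± 0.506 in control and 4.24 ± 1.58 in ancrod mice, Gzmb 9.19 ± 3.14 in control and 7.08 ± 1.71 in ancrod mice and Ifng 1.69 ± 1.11 in control and 1.24 ± 0.535 in ancrod mice.

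**Figure D5:**
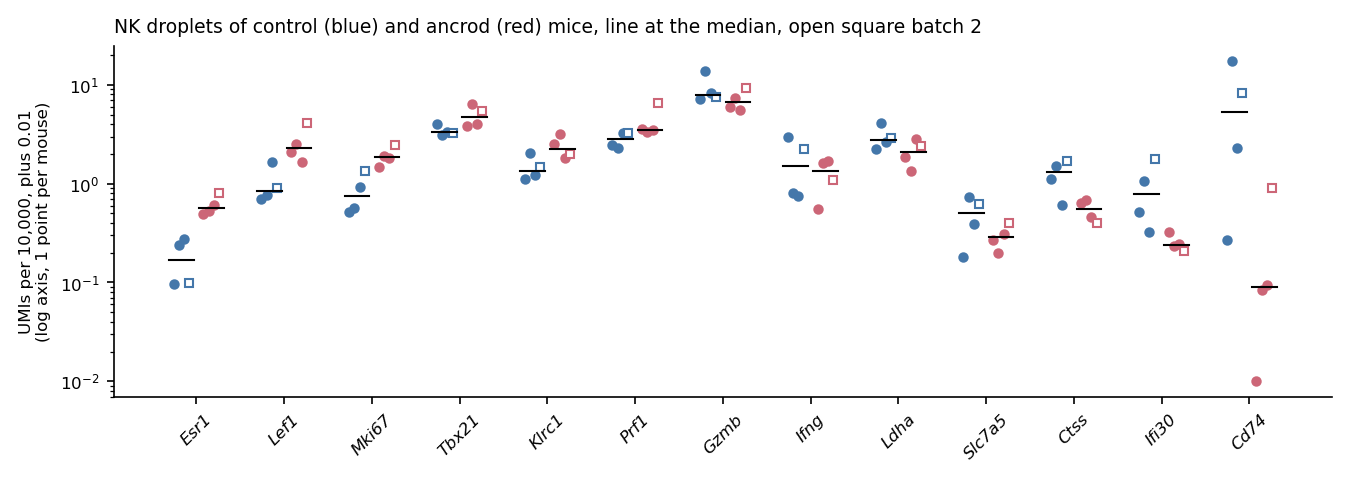
Levels of 13 genes in the NK droplets of each control (blue) and ancrod (red) mouse, in UMIs per 10,000 plus 0.01 on a log axis, with a line at the median and batch 2 as squares. Esr1, Lef1 and Mki67 do not overlap between groups, and no gene passed an adjusted p of 0.05.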

How the data were processed

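The libraries (10x Genomics 3′ v3.1) were counted by the authors with Cell Ranger 7.1.0 on GRCm39. The deposited matrices hold raw UMI counts, not normalized, for every droplet and 21848 genes. Of the listed genes 9 were not analysed here, and some others are not reported here. The labels name female C57Bl/6J mice, while the methods name C57BL/6N mice of either sex, which is unresolved.

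The NK members, gene lists and tests were chosen with earlier results of these data known. No doublet caller was run. Shares per mouse were compared with exact permutation tests (scipy 1.17.1). UMIs summed per mouse and class went through edgeR 4.0.16 (filterByExpr, TMM, quasi-likelihood test, Benjamini-Hochberg threshold 0.05), which was tested on simulated data. DESeq2 1.42.0 was an alternative. Named genes were those on the lists, the 5 with the lowest unadjusted p for ancrod, and the 10 largest differences each way between NK and T without overlap. Thinning used 1 random seed per droplet. That seeding replaced another after a first draw had been seen, and a mean of 100 draws was added. Positions are from GENCODE on GRCm39.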

Additional observations from a re-analysis of the deposited data

Results flagged for a closer look

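In 65 groups of 4 or 8 mice the gap between the most extreme mouse and its neighbour was set against the range of the group, and 8 (12.3%) had 1 mouse far from the others, where chance gives about 1 in 20. That rate does not hold for these sparse counts. All 8 were genes near 0 in most mice of the group looked at, and the gap of a gene found in 1 mouse only is 1 whatever its count. Cd74 in NK droplets of ancrod mice reached 0.888 UMIs per 10,000 with the next at 0.0853 (gap 0.904 of the range). In NK droplets of all 8 mice, Themis and Cd5 were found in 1 mouse each, at 0.0986 and 0.112 (gap 1 for both), and Cd6 reached 0.0749 with the next at 0.0239 (gap 0.681). In T droplets, Klra8 reached 0.174 with the next at 0.0348 (gap 0.800), Angpt1 0.148 with the next at 0.0138 (gap 0.906) and Bahcc1 0.0592 with the next at 0.0111 (gap 0.813). Vegfc was found in T droplets of 1 mouse, at 0.0296 (gap 1).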

How the results depend on the processing

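The differences in share (ancrod minus control, percentage points) were small enough for the sign to turn. Leaving out each mouse gave -0.0532 to 0.117 for the NK share of droplets, -2.5 to 4.28 for the share of NK and T droplets and -0.99 to 2.21 for the dividing share. Batch 2 gave -0.376, -10.7 and -0.49. The dividing share also turned with no Cd3 gene detected (-3.49), a mitochondrial limit of 10% (-0.585), at least 1 of 5 genes (-0.189) and no thinning (-6.82), and was 1.99 as the mean of 100 draws (exact permutation p = 0.2).

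The count of genes called for ancrod was 0 and became 13 with no filter, 4 with mice of at least 20 NK droplets, and 0 to 6 on leaving out each mouse (6 without control 1). With the replicate block it was 3, namely Cd74, H2-Aa and H2-Eb1, which were also called in the other settings that gave calls. The class II genes were chosen after their values were seen. Droplets rich in dendritic cell markers, which include Cd74 and H2-Aa, were left out in the main setting only. It gave 0 calls with them and 0 without them. Whether the calls of the other settings rest on those droplets was not tested. Same-numbered mice did not deviate together (correlations across genes 0.0499, -0.127, -0.203 and 0.0444), so the numbers were not taken to pair the mice. The shares under the block had p = 0.875, 0.625 and 0.75 (exact sign flips over 16 arrangements).

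Genes differing between NK and T droplets numbered 996 to 1146 on leaving out each mouse, 1048 with no replicate block, and 995 of 10167 in DESeq2, where the median log2 fold change over all genes was 0.14 in place of -0.02. Of 109 named genes called there 96 kept direction and call wherever tested, and 13 lost the call in at least 1 setting, at adjusted p of 0.0504 to 0.368 in edgeR or DESeq2 (Fcgr3, Gzmc, Gzmm, Ifit2, Ifngr1, Il27ra, Irf7, Itgb1, Mx1, Nfil3, Runx3, S1pr5 and Zap70). The batch 2 values, the 100 draws and the dendritic setting were added after seeing the data. With 12 to 41 NK droplets per mouse, changes by 1 on the log2 scale were mostly not detectable, and the cause of the changes above was not tested.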
